A study of Mus musculus with 7 samples.

Results

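Bone morphogenetic proteins (BMPs) and transforming growth factor beta (TGF-beta) are secreted ligands that bind pairs of type I and type II receptor kinases at the cell surface. The activated receptors phosphorylate Smad proteins, which join the shared partner Smad4 and enter the nucleus, where they switch on targets such as the Id genes and the inhibitory Smads. In the intestine BMP signalling is known to be stronger in the villus than in the crypt and to restrain stem cells, and loss of its receptor or of Smad4 leads to polyps. The 10 genes described here were chosen by symbol, as targets, inhibitors and core transducers of these pathways: Bmp2, Bmpr1a, Smad4, Id1, Id2, Id3, Tgfbi, Smad6, Smad7 and Bambi. Each symbol matched 1 of the 46671 genes in the deposited expression table, and the rule uses no expression value.

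RNA was sequenced from mouse intestinal epithelium of 8-week-old BALB/C animals. Stk24, which encodes the kinase MST3, had been deleted from intestinal epithelial cells in 4 libraries (cKO), and 3 libraries came from wild-type animals (Ctrl), littermates according to the design text. MST3 is a STE20-family kinase that the title of the series links to the co-activator YAP, and the design text asks what it does in colorectal cancer. The Cre driver of the knockout is not named in the labels, nor do they tie libraries to single mice, so that p-values reflect only how these libraries vary, which may be technical. The treatment label of both groups states that no drug was given, whereas the design text names a carcinogen and colitis protocol.

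Values are FPKM, fragments per kilobase of gene, scaled by library size, and can be compared between genes because they are per length. Reads assigned to genes numbered 14659708 to 19659622 per library. Stk24 stood at 3.34 ± 0.435 FPKM in cKO (SD, n = 4) and 19.9 ± 0.926 FPKM in Ctrl (SD, n = 3), so that 16.7% of the Ctrl mean was left in the libraries labelled as knockouts. The label names colorectum as the tissue, but of 7 markers of large intestine 4 were at or near 0, with Hoxd10 and Hoxd13 at 0 in all 7 libraries, Car1 at no more than 0.0705 FPKM and Hoxb13 at no more than 0.304 FPKM, and the 7 summed to 7.72 to 11.2 FPKM in cKO and 5.42 to 8.68 FPKM in Ctrl. Of 10 markers of small intestine, all but Fabp6 were abundant. Apoa4 stood between 4553 and 7710 FPKM in cKO and between 8456 and 10415 FPKM in Ctrl. Gata4 stood between 39.9 and 50.1 FPKM in cKO and between 50.4 and 53.8 FPKM in Ctrl. Fabp6 was low, between 0.270 and 4.19 FPKM in cKO and between 0.234 and 3.15 FPKM in Ctrl. The epithelial marker Epcam stood between 689 and 987 FPKM in cKO and between 805 and 919 FPKM in Ctrl.

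The comparison asked whether any gene of this response differed between epithelium labelled as lacking Stk24 and wild-type epithelium. None of the 10 genes passed an adjusted p of 0.05 in limma, where 0.0306% of the 13057 genes tested passed. All 10 averaged 0.5 FPKM or more, the level required for testing. Without adjustment 1 gene had a p under 0.05, Bmpr1a, beside 8.97% of all genes tested. With limma voom on reads recovered from the FPKM, 0 of the 10 passed after adjustment, beside 0.0139% of all genes, and 1 had an unadjusted p under 0.05, beside 8.42% of all genes. The log2 difference was above 0 in cKO for 4 genes, or 4 of 10 beside 48.7% of all genes tested, and below 0 for 6, with a median of -0.11 beside -0.0077 over all genes tested. Bmpr1a was also the only gene of the 10 whose libraries did not overlap between the groups, where 10.1% of all genes tested had no overlap and 5.62% had none with cKO higher (4.51% with cKO lower). For 9 of the 10 genes the 95% interval of the difference lay within a factor of 2 in either direction, the exception being Bambi. A p that misses the threshold does not show equal levels, and in bulk RNA of an epithelium fewer cells of a type and less RNA per cell cannot be told apart.

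**Figure D1:**
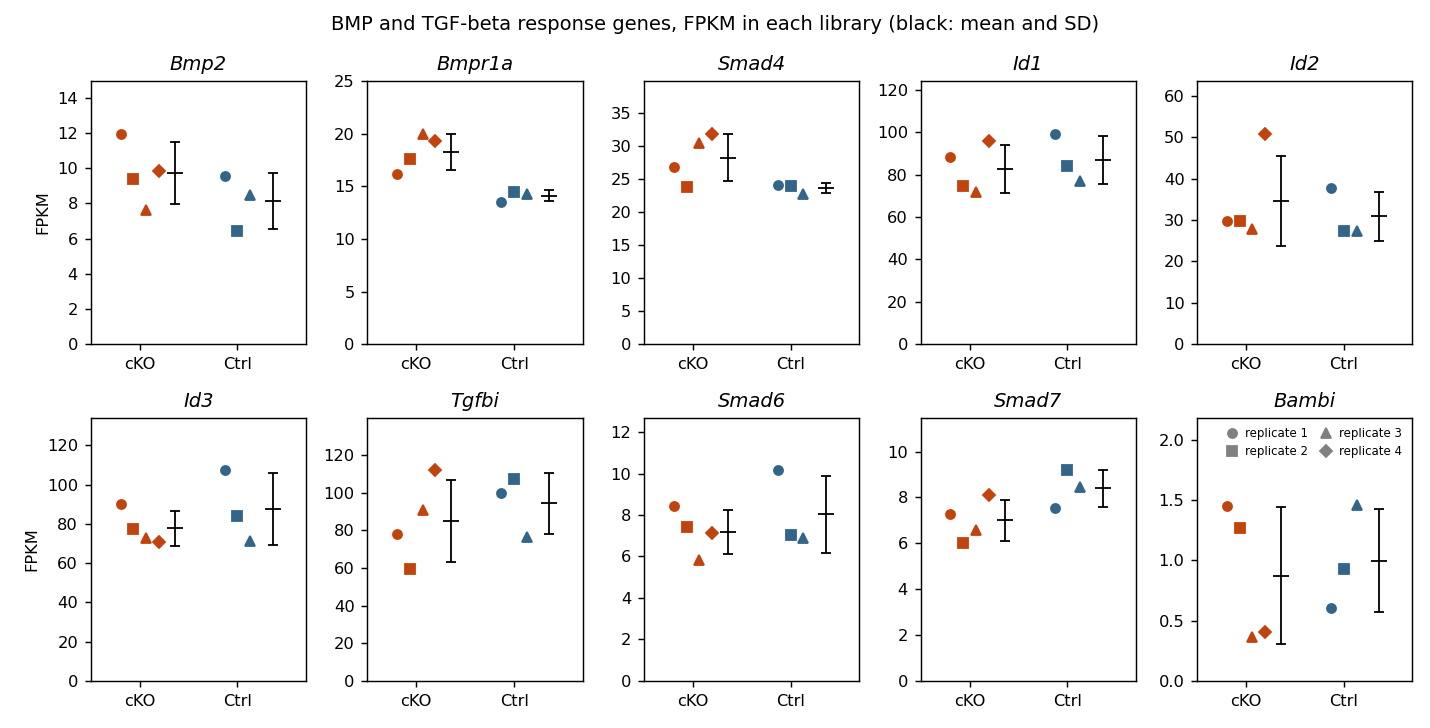
FPKM of the 10 genes in each of the 4 cKO and 3 Ctrl libraries, with 1 symbol per library and the mean and SD of each group in black; each panel has its own linear axis from 0. The 4 cKO libraries of Bmpr1a, at 16.2 to 20.02 FPKM, sit above the 3 Ctrl libraries at 13.5 to 14.5 FPKM, and the groups overlap in the other 9 panels.

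The 10 genes spanned a wide range of levels. Over the 7 libraries Tgfbi averaged 88.995 FPKM, Id1 84.4 FPKM and Id3 81.9 FPKM, and these 3 could not be ordered, since Tgfbi exceeded Id1 in 4 of 7 libraries and Id1 exceeded Id3 in 2. The mean of Id1 was above that of 93.6% of all genes tested. Id2 followed at 32.95 FPKM, Smad4 at 26.3 FPKM and Bmpr1a at 16.5 FPKM. Id2 exceeded Smad4 in 6 of 7 libraries with overlapping ranges, and Smad4 exceeded Bmpr1a in all 7 without overlap. Bmp2 at 9.04 FPKM, Smad7 at 7.60 FPKM and Smad6 at 7.56 FPKM had overlapping ranges. Bambi was lowest at 0.928 FPKM, above 11.4% of genes tested.

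Bmp2, the ligand among the 10 genes, is made by differentiated epithelial cells of the villus and surface. It lies on the plus strand of chromosome 2 at 133394079 to 133404816 (GRCm39). It stood at 11.96, 9.41, 7.65 and 9.85 FPKM in cKO replicates 1 to 4, against 9.54, 6.41 and 8.49 FPKM in Ctrl replicates 1 to 3. The highest library was cKO replicate 1 and the lowest Ctrl replicate 2, with the other 5 intermixed. Bmp2 averaged 9.72 ± 1.77 FPKM in cKO (SD, n = 4) and 8.15 ± 1.59 FPKM in Ctrl (SD, n = 3), a log2 difference of 0.24 (95% interval -0.17 to 0.66, limma adjusted p = 0.710). The difference was 0.089 without Ctrl replicate 2 and 0.14 without cKO replicate 1. Bmp2 rested on 384 to 758 reads per library.

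Bmpr1a encodes the type I BMP receptor ALK3, mutated in human juvenile polyposis. It lies on the minus strand of chromosome 14 at 34133018 to 34225335 (GRCm39), 87.3 Mb from Stk24 on the same chromosome. It stood at 16.2, 17.6, 20.02 and 19.3 FPKM in cKO replicates 1 to 4, against 13.5, 14.5 and 14.3 FPKM in Ctrl replicates 1 to 3. Every cKO library lay above every Ctrl library. The cKO mean of 18.3 ± 1.75 FPKM (SD, n = 4) was 1.30 times the Ctrl mean of 14.1 ± 0.537 FPKM (SD, n = 3), and the groups differed by 0.36 on the log2 scale (SE 0.11, 95% interval 0.108 to 0.61). The unadjusted limma p was 0.011 and the adjusted p was 0.511, so that the difference did not pass over all genes. By an exact permutation test, 2-sided, p was 0.0571, and no smaller p can be had from 4 against 3 libraries. The difference stayed above 0 in all 18 alternatives, between 0.30 and 0.45, with an adjusted p between 0.318 and 0.808. The gene is long, at 6080 bases beside a median of 3138 bases for the tested genes. Once the trend with gene length was taken out of each library, the difference was 0.30 (limma adjusted p = 0.609).

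Smad4 encodes the partner shared by the BMP and TGF-beta branches and lies on the minus strand of chromosome 18 at 73767861 to 73836862 (GRCm39). It stood at 26.9, 23.8, 30.4 and 31.9 FPKM in cKO replicates 1 to 4, against 24.1, 24.01 and 22.8 FPKM in Ctrl replicates 1 to 3. Of the cKO libraries, 3 lay above the highest Ctrl library, and cKO replicate 2 lay within the Ctrl range. Smad4 averaged 28.2 ± 3.62 FPKM in cKO (SD, n = 4) and 23.6 ± 0.726 FPKM in Ctrl (SD, n = 3), a log2 difference of 0.25 (95% interval -0.038 to 0.53, limma adjusted p = 0.595). Its libraries varied more in cKO, by a factor of 1.34, than in Ctrl, by a factor of 1.06, at 2812 to 3644 reads per library. The spread itself was not tested. As for Bmpr1a, the highest libraries were cKO replicates 3 and 4. The gene is 7628 bases long, and the difference was 0.17 with the length trend taken out.

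Id1, Id2 and Id3 encode helix-loop-helix proteins without a DNA-binding region, which sequester partner transcription factors, and Id1 and Id3 in particular are standard readouts of BMP signalling. Id1 lies on the plus strand of chromosome 2 at 152578171 to 152579330 (GRCm39). It stood at 88.3, 74.4, 71.6 and 95.6 FPKM in cKO replicates 1 to 4, against 99.3, 84.1 and 77.1 FPKM in Ctrl replicates 1 to 3. The groups overlapped, with Ctrl replicate 1 highest and cKO replicate 3 lowest, and all 7 libraries lay within a factor of 1.39. Id1 averaged 82.5 ± 11.4 FPKM in cKO (SD, n = 4) and 86.8 ± 11.3 FPKM in Ctrl (SD, n = 3), a log2 difference of -0.076 (95% interval -0.42 to 0.27, limma adjusted p = 0.908). Its direction depended on the scaling, at 0.012 with TPM and 0.028 after quantile normalization, and on Ctrl replicate 1, without which it was 0.025.

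Id3 lies on the plus strand of chromosome 4 at 135871133 to 135872703 (GRCm39). It stood at 90.2, 77.3, 72.8 and 70.6 FPKM in cKO replicates 1 to 4, against 107, 84.1 and 71.1 FPKM in Ctrl replicates 1 to 3. As with Id1, Ctrl replicate 1 was the highest library. Id3 averaged 77.7 ± 8.80 FPKM in cKO (SD, n = 4) and 87.5 ± 18.3 FPKM in Ctrl (SD, n = 3), a log2 difference of -0.16 (95% interval -0.54 to 0.22, limma adjusted p = 0.799). Without Ctrl replicate 1 the difference was 0.00036, and with the length trend taken out it was 0.0021, Id3 being among the shorter genes at 953 bases.

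Id2 lies on the minus strand of chromosome 12 at 25143798 to 25146091 (GRCm39). It stood at 29.7, 29.7, 27.8 and 50.8 FPKM in cKO replicates 1 to 4, against 37.8, 27.4 and 27.3 FPKM in Ctrl replicates 1 to 3. The 2 highest libraries were cKO replicate 4 and Ctrl replicate 1, and the other 5 lay close together. Id2 averaged 34.5 ± 10.9 FPKM in cKO (SD, n = 4) and 30.8 ± 6.02 FPKM in Ctrl (SD, n = 3), a log2 difference of 0.13 (95% interval -0.395 to 0.66, limma adjusted p = 0.894). Without cKO replicate 4 the difference was -0.066. Its read number in that replicate was 900, against 514 to 672 in the other cKO libraries, so that counting error, at most 0.064 on the log2 scale in a library, was small beside the gap. The immediate-early genes, which respond to handling and stress within minutes, had a summed level of 374 FPKM in cKO replicate 4, against 155 to 233 FPKM in the other cKO libraries and 206 to 347 FPKM in Ctrl. The Ctrl libraries had another order, since Ctrl replicate 3, at 347 FPKM of these genes, had the lowest Id2 of all 7 libraries, and Ctrl replicate 1, the second highest for Id2, had 206 FPKM. Of the immediate-early genes, only Fos, Fosb and Jun were highest in cKO replicate 4, and Fos alone stood at 160 FPKM there. Junb, Egr1, Ier2, Atf3 and Dusp1 were each highest in a Ctrl library. The part of the immediate-early genes in the Id2 level was not tested.

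The stretch of 250 bases before the annotated start is given for Id2 and Id3, as closely related targets that differed in which library was highest, for Smad6 as the inhibitor that responds directly to BMP, and for Bmpr1a as the gene whose groups did not overlap. RefSeq sequences on GRCm38.p6 were matched by symbol for 5 of the 10 genes, the fifth being Tgfbi. Capitals mark GGCGCC, a GC-rich element bound by the BMP Smads.
Id2, chr12:25096093-25096342, minus strand: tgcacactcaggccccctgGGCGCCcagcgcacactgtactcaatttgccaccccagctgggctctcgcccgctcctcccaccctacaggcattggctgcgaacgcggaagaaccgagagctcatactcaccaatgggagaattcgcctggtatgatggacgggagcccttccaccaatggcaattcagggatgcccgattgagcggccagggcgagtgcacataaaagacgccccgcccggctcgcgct
Id3, chr4:136143572-136143821, plus strand: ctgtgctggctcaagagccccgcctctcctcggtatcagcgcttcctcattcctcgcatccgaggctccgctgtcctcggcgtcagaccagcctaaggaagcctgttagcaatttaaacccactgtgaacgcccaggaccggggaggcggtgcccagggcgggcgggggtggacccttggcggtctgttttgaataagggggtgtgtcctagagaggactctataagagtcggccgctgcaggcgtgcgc
Smad6, chr9:64022060-64022309, minus strand: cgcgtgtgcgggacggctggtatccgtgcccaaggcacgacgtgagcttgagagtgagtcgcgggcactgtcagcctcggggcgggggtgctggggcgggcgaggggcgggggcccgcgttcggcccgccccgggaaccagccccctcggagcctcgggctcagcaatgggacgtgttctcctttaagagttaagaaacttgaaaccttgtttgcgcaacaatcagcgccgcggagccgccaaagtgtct
Bmpr1a, chr14:34502547-34502796, minus strand: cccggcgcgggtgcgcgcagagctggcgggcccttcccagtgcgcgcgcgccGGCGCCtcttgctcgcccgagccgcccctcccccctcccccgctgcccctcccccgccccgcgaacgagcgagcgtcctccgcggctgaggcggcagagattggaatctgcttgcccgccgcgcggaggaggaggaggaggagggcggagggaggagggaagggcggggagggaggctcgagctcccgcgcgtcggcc
On both strands 2 motifs were searched. GGCGCC occurred once each in the windows of Id2, 231 bases before the start, of Bmpr1a, 198 bases before the start, and of Tgfbi, 77 bases before the start, and in 9.59% of all 32851 such windows. The palindromic Smad element GTCTAGAC was in 0 of the 5 windows and in 0.167% of all. The windows of these genes were rich in G and C, at 62.8% for Id2 and for Id3, 66.8% for Smad6 and 78.8% for Bmpr1a, against a median of 52.4%. A match is a description of the letters and not a binding site.

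Tgfbi encodes an extracellular matrix protein first found as a gene induced by TGF-beta, and lies on the plus strand of chromosome 13 at 56757399 to 56787172 (GRCm39). It stood at 78.1, 59.6, 90.6 and 112 FPKM in cKO replicates 1 to 4, against 99.6, 107.002 and 76.2 FPKM in Ctrl replicates 1 to 3. The lowest and the highest library were both cKO, and they differed by a factor of 1.88. Tgfbi averaged 85.04 ± 21.9 FPKM in cKO (SD, n = 4) and 94.3 ± 16.1 FPKM in Ctrl (SD, n = 3), a log2 difference of -0.17 (95% interval -0.68 to 0.35, limma adjusted p = 0.851). The difference stayed below 0 but ranged from -0.39 with array weights to -0.013 without cKO replicate 2. Its order over the libraries was close to that of Vil1, which encodes the brush-border protein villin, at 810, 733, 959 and 1187 FPKM in cKO and 993, 1074 and 897 FPKM in Ctrl. The 4 libraries highest for Tgfbi were the 4 highest for Vil1, in the same order, with cKO replicate 4 first. The summed FPKM of all genes was also highest in cKO replicate 4, at 522836, and lowest in cKO replicate 2, at 421872. The epithelial markers Epcam, Krt8 and Krt20 had this highest and lowest library too, whereas Cldn7 was highest and Cdh1 lowest in Ctrl replicate 1. Tgfbi is also known in macrophages, whose markers were low, with a summed level over 8 genes of 5.44 to 7.96 FPKM in cKO and 5.67 to 11.2 FPKM in Ctrl. Lyz2, the most abundant of these markers, stood between 2.18 and 4.10 FPKM in cKO and between 1.99 and 5.80 FPKM in Ctrl. Adgre1 was at no more than 0.107 FPKM in cKO and 0.108 FPKM in Ctrl. The sum was highest in Ctrl replicate 2, second highest for Tgfbi, and lowest in cKO replicate 2, lowest for Tgfbi. Vil1 was compared after the values were seen. The part of Vil1, of the summed FPKM of the library or of macrophages in the Tgfbi level was not tested.

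Smad6 and Smad7 encode the inhibitory Smads, which are induced by the pathway and block receptors or Smad4 in return. Smad6 lies on the minus strand of chromosome 9 at 63860358 to 63929374 (GRCm39). It stood at 8.43, 7.40, 5.85 and 7.13 FPKM in cKO replicates 1 to 4, against 10.2, 7.02 and 6.91 FPKM in Ctrl replicates 1 to 3. Ctrl replicate 1 was again the highest library and cKO replicate 3 the lowest, as for Id1. Smad6 averaged 7.20 ± 1.06 FPKM in cKO (SD, n = 4) and 8.03 ± 1.84 FPKM in Ctrl (SD, n = 3), a log2 difference of -0.14 (95% interval -0.53 to 0.26, limma adjusted p = 0.844), which was 0.035 without Ctrl replicate 1. That library also had the highest summed level of 7 T cell markers, at 1009 FPKM, against 263 to 637 FPKM in cKO and 406 and 457 FPKM in the other Ctrl libraries. The lowest sum, 263 FPKM, was that of cKO replicate 1, which was second highest for Smad6 and Id3. The part of T cells in the levels of Id1, Id3 and Smad6 was not tested.

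Smad7, on the plus strand of chromosome 18 at 75500436 to 75529006 (GRCm39), is induced by both branches. It stood at 7.30, 6.02, 6.57 and 8.10 FPKM in cKO replicates 1 to 4, against 7.54, 9.18 and 8.46 FPKM in Ctrl replicates 1 to 3. In cKO 3 libraries lay below the lowest Ctrl library, and cKO replicate 4 lay within the Ctrl range. Smad7 averaged 6.999 ± 0.903 FPKM in cKO (SD, n = 4) and 8.39 ± 0.824 FPKM in Ctrl (SD, n = 3), a log2 difference of -0.25 (95% interval -0.55 to 0.0495, limma adjusted p = 0.611). The difference stayed below 0 in all 18 alternatives, between -0.32 and -0.17. Unlike Smad6, Smad7 was highest in Ctrl replicate 2 and not in Ctrl replicate 1. A long noncoding gene that overlaps Smad7 on the opposite strand, Gm41776, had 2 reads in all libraries together.

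Bambi encodes a receptor-like protein without a kinase domain, which occupies the place of a type I receptor. It lies on the plus strand of chromosome 18 at 3507011 to 3516404 (GRCm39). It stood at 1.46, 1.27, 0.364 and 0.405 FPKM in cKO replicates 1 to 4, on 147, 122, 30 and 32 reads, against 0.608, 0.933 and 1.46 FPKM in Ctrl replicates 1 to 3, on 67, 89 and 134 reads. Replicates 1 and 2 lay far above replicates 3 and 4 within cKO, by up to a factor of 4.005, and the Ctrl libraries lay between or level with them. Bambi averaged 0.874 ± 0.571 FPKM in cKO (SD, n = 4) and 0.999 ± 0.429 FPKM in Ctrl (SD, n = 3), a log2 difference of -0.19 (95% interval -1.03 to 0.65, limma adjusted p = 0.908). Its direction depended on single libraries, at 0.0050 without cKO replicate 3 and 0.027 without Ctrl replicate 3. Paneth cell genes of the list of small intestine markers varied alongside it. Defa24, an alpha-defensin, stood at 9268, 8484, 2125 and 2033 FPKM in cKO replicates 1 to 4, against 4550, 9439 and 16415 FPKM in Ctrl replicates 1 to 3. Lyz1, the Paneth cell lysozyme, stood at 5049, 4577, 1207 and 1008 FPKM in cKO, against 2277, 2628 and 3042 FPKM in Ctrl. For all 3 genes the lowest 3 libraries were cKO replicates 3 and 4 and Ctrl replicate 1. Defa24 and Lyz1 were set beside Bambi after the values were seen, and their part in its level was not tested.

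**Figure D2:**
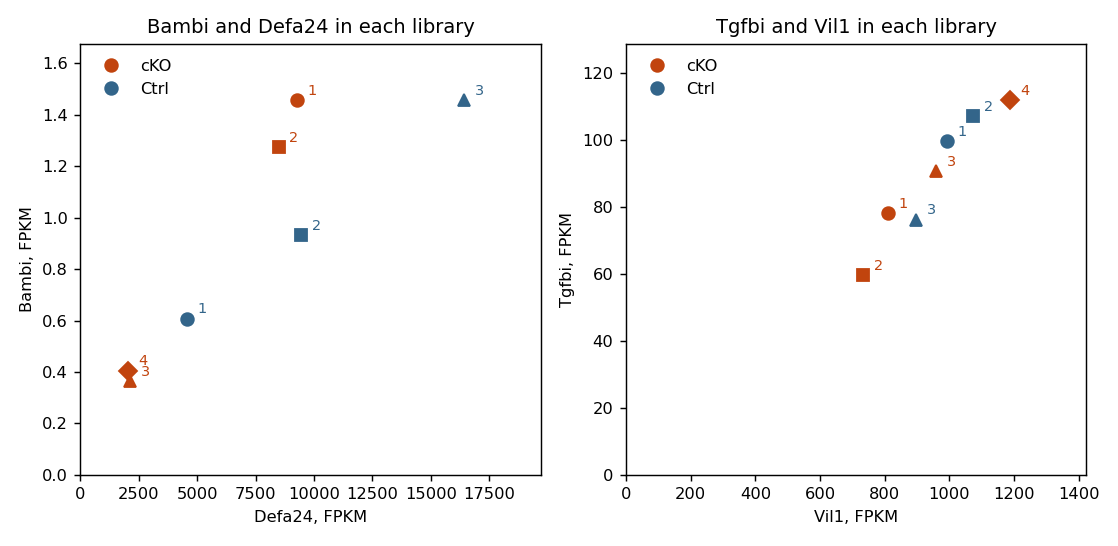
FPKM of Bambi against Defa24 (left) and of Tgfbi against Vil1 (right), 1 point per library, numbered by replicate, on linear axes from 0. The lowest 3 libraries for Bambi, at 0.364 to 0.608 FPKM, are also the lowest 3 for Defa24, and cKO replicate 4, at 112 FPKM of Tgfbi, is highest for Vil1 at 1187 FPKM.

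The spread within groups differed between the 10 genes. On the log2 scale the SD within groups was 0.11 for Bmpr1a, 0.15 for Smad4 and 0.16 for Smad7, below the median of 0.23 over all genes tested. It was 0.34 for Tgfbi, 0.35 for Id2 and 0.55 for Bambi, above that median. Counting error in the library with the fewest reads was 0.038 for Bmpr1a and 0.26 for Bambi on the same scale. Of the 10 genes, depth thus limited Bambi most, though its counting error stayed below its SD within groups of 0.55. The intervals of the differences follow this spread.

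**Figure D3:**
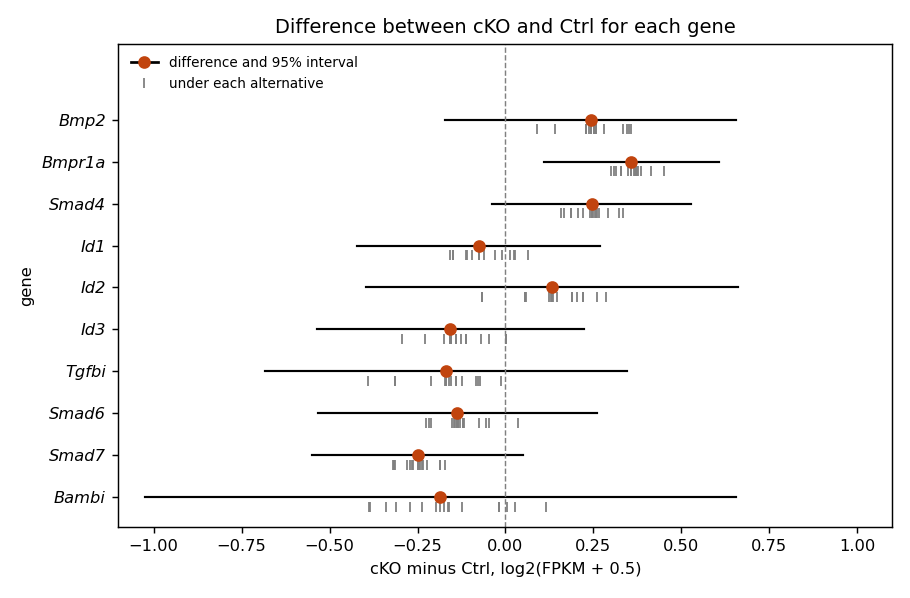
Log2 difference between cKO and Ctrl for each gene, on the scale log2(FPKM + 0.5), with its 95% interval from limma (line) and its value under each of 18 alternatives, 17 for Bambi (ticks). Only the interval of Bmpr1a, 0.108 to 0.61, leaves out 0, and Bambi has the widest, from -1.03 to 0.65.

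The genes were compared with Id1 by their profiles over the libraries. Likeness to Id1 was measured as the root mean square difference between log2 profiles, each centred on its own mean, over 7 libraries and 10447 genes averaging 1 FPKM or more. The 5 nearest genes were Pip4p1 at 0.036, Ube2v1 at 0.045, Rab3ip at 0.049, the pseudogene Vdac3-ps1 at 0.051 and Fzr1 at 0.052. Among the other genes of the response, Smad6 was nearest to Id1, at rank 664 with a difference of 0.14, followed by Id3 at rank 1418 with 0.17. Smad7 had rank 2042 and Id2 rank 3201, and Bmpr1a was the farthest of those ranked, at 6954. Bambi lay below the level required. A gene with a flat profile would differ from Id1 by 0.167, so that of the genes of the response ranked, Smad6 alone lay nearer to Id1 than a flat profile. This is a description of 7 profiles with no test.

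Around the 10 genes, 82 further genes of the pathways were examined, in lists by role, and none passed the adjusted threshold in limma. Of these, 46 reached the level required for testing. Without adjustment 3 genes had a p under 0.05, all higher in cKO, or 6.52% of those tested beside 8.97% of all genes. With voom 0 passed after adjustment, beside 0.0139% of all genes. An unadjusted voom p under 0.05 was found for 5 of these 46, beside 8.42% of all genes. The log2 difference was above 0 for 26 and below 0 for 20, with a median of 0.063 beside -0.0077 over all genes tested. Groups did not overlap for 6 genes with cKO higher and 1 with cKO lower, or 15.2% beside 10.1% of all genes tested. The 6 genes with cKO higher were long, from 5705 bases (Acvr2a) to 14167 bases (Smad2), beside a median of 3138 bases for the tested genes. The lists they belong to were long as well, with medians of 6199 bases for receptors, 6473 for other Smads and 5451 for regulators. Nedd4l, a regulator of 18467 bases, overlapped between the groups. Ube2o, the gene with cKO lower, has 5261 bases. With the length trend taken out, 2 of the 46 pathway genes had an unadjusted limma p under 0.05, beside 1014 of all 13057 genes tested. Before that step the numbers were 3 and 1171. The part of length was not tested.

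**Figure D4:**
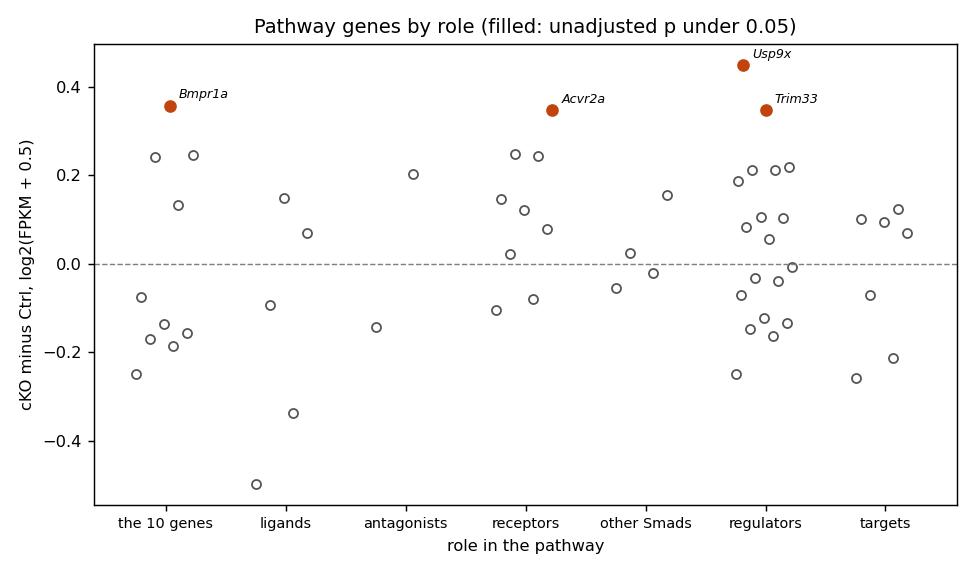
Log2 difference between cKO and Ctrl on the scale log2(FPKM + 0.5) for the 10 genes and for the 46 tested genes of 6 pathway lists, 1 point per gene. Filled points are those with an unadjusted p under 0.05, Bmpr1a, Acvr2a, Usp9x and Trim33, with differences between 0.35 and 0.45; none of them passed after adjustment.

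Of 15 other ligands, 5 reached the level required for testing, and 0 passed. Bmp3, which acts against other BMPs and had the highest mean of them, averaged 7.12 ± 1.37 FPKM in cKO (SD, n = 4) and 6.34 ± 1.12 FPKM in Ctrl (SD, n = 3). Bmp8a was close, at 6.54 ± 3.23 FPKM in cKO (SD, n = 4) and 6.27 ± 3.04 FPKM in Ctrl (SD, n = 3). It exceeded Bmp3 in cKO replicates 3 and 4 and in Ctrl replicates 2 and 3. Tgfb1, the ligand of the TGF-beta branch, stood at 1.05, 1.51, 1.72 and 2.45 FPKM in cKO replicates 1 to 4, against 2.88, 2.63 and 2.05 FPKM in Ctrl replicates 1 to 3. Of the cKO libraries, 3 lay below all Ctrl libraries, and the log2 difference was -0.497 (SE 0.23, limma adjusted p = 0.573). The summed T cell markers were likewise lowest in cKO replicate 1 and highest in Ctrl replicate 1, at 263 and 1009 FPKM. Between these libraries their order differed from that of Tgfb1, and the part of T cells in its level was not tested. Bmp7 averaged 1.62 ± 0.762 FPKM in cKO (SD, n = 4) and 2.04 ± 0.310 FPKM in Ctrl (SD, n = 3). Bmp4, known as a ligand of the mesenchyme, was at no more than 0.0698 FPKM in cKO and no more than 0.3001 FPKM in Ctrl.

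Most secreted antagonists were too low to test. Of 15, 13 averaged under 0.5 FPKM and 2 could be tested, of which 0 passed, Twsg1, which binds BMPs outside the cell, with a log2 difference of 0.20 (SE 0.12) and Nbl1, an antagonist of the DAN family, with -0.14 (SE 0.27). Noggin (Nog) was at 0 in 6 libraries and at 0.107 FPKM in cKO replicate 3. Grem1, a product of stromal cells, was at 0 in the 4 cKO libraries and in 2 Ctrl libraries, and at 0.0314 FPKM in Ctrl replicate 1. Stromal markers were low as well. The summed level of 8 fibroblast markers was 0.792 to 8.16 FPKM in cKO and 1.40 to 6.49 FPKM in Ctrl, with Dcn, the most abundant, at up to 6.25 FPKM in cKO replicate 4. Smooth muscle markers summed to no more than 0.311 FPKM in cKO and 0.786 FPKM in Ctrl. Of 8 endothelial markers, a cell type known for high Id1 and Id3, Emcn and Cldn5 were at 0 in all 7 libraries, and the sum was 1.097 to 1.56 FPKM in cKO and 1.29 to 2.22 FPKM in Ctrl. Esam, the most abundant of them, stood between 0.258 and 1.30 FPKM in cKO and between 0.702 and 1.52 FPKM in Ctrl, and Pecam1 was found in every library. Id1 and Id3 stood at 70.6 FPKM or more in every library, and the part of endothelium in their levels was not tested.

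Of 14 other receptors, 9 could be tested and 0 passed, with 7 differences above 0 and 2 below 0. Acvr2a, a type II receptor for activins and BMPs, stood at 8.40, 7.84, 10.98 and 8.64 FPKM in cKO replicates 1 to 4, against 6.10, 7.80 and 6.84 FPKM in Ctrl replicates 1 to 3. All cKO libraries lay above all Ctrl libraries, by a margin of 7.84 to 7.80 FPKM, and the log2 difference was 0.35 (SE 0.14, limma adjusted p = 0.542). Tgfbr1, the type I receptor for TGF-beta, averaged 3.74 ± 0.466 FPKM in cKO (SD, n = 4) and 3.06 ± 0.132 FPKM in Ctrl (SD, n = 3), also without overlap, with an adjusted p of 0.599 in limma. Bmpr2, the main type II receptor for BMPs, had a log2 difference of 0.25 (SE 0.13). Acvr1b, a type I receptor for activin, was the most abundant at 24.8 ± 2.82 FPKM in cKO (SD, n = 4) and 24.4 ± 2.26 FPKM in Ctrl (SD, n = 3), above Bmpr1a. Bmpr1b, the close relative of Bmpr1a, was at 0 in all 7 libraries. The receptors tested were long, with a median of 6199 bases.

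Among the Smads that receptors phosphorylate, 4 of 5 could be tested and 0 passed. Smad1, of the BMP branch, averaged 19.7 ± 1.48 FPKM in cKO (SD, n = 4) and 20.7 ± 3.77 FPKM in Ctrl (SD, n = 3), and the groups differed by -0.055 on the log2 scale (SE 0.14). Smad2, of the TGF-beta branch, stood between 2.50 and 2.76 FPKM in cKO and between 2.20 and 2.32 FPKM in Ctrl without overlap, with a log2 difference of 0.16 (SE 0.11, limma adjusted p = 0.703). Smad3, of the same branch, had a difference of 0.026 (SE 0.096). Smad9 lay below the level required.

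All 19 intracellular regulators could be tested and 0 passed, with 10 differences above 0 and 9 below 0. Usp9x, a deubiquitinase known to act on Smad4, stood at 8.82, 10.4, 11.1 and 9.02 FPKM in cKO replicates 1 to 4, against 6.29, 7.42 and 7.49 FPKM in Ctrl replicates 1 to 3. The groups did not overlap, and the log2 difference was 0.45 (SE 0.12, unadjusted p = 0.0065, limma adjusted p = 0.493). Trim33, a ubiquitin ligase that binds Smads, stood between 3.59 and 4.14 FPKM in cKO and between 2.63 and 3.32 FPKM in Ctrl, a log2 difference of 0.35 (SE 0.12, limma adjusted p = 0.516). Usp15, a deubiquitinase of receptor Smads, had a difference of 0.22 (SE 0.095). Fkbp1a, which binds type I receptors and keeps them silent without ligand, was the most abundant at 81.04 ± 7.19 FPKM in cKO (SD, n = 4) and 88.01 ± 4.12 FPKM in Ctrl (SD, n = 3).

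Of 14 further targets, 7 could be tested and 0 passed, 4 with a difference above 0 and 3 below 0. Cdkn1a, the cell cycle inhibitor p21, was the most abundant, at 88.6, 77.3, 104.98 and 156 FPKM in cKO replicates 1 to 4, against 106, 118 and 148 FPKM in Ctrl replicates 1 to 3. Like Id2, Cdkn1a was highest in cKO replicate 4, and its log2 difference was -0.26 (SE 0.24, limma adjusted p = 0.771). Runx3, a transcription factor that cooperates with Smads, had a log2 difference of -0.21 (SE 0.28). It was lowest in cKO replicate 1, at 1.01 FPKM, and highest in Ctrl replicate 1, at 2.86 FPKM. The summed T cell markers were also lowest and highest in these libraries, at 263 and 1009 FPKM. The part of T cells in the Runx3 level was not tested. Id4, the remaining Id gene, averaged 0.610 ± 0.0915 FPKM in cKO (SD, n = 4) and 0.526 ± 0.169 FPKM in Ctrl (SD, n = 3). Msx1, Msx2 and Ccn2 were at 0 in all 7 libraries.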

How the data were processed

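The authors deposited 1 table of FPKM values for 46671 genes in 7 libraries. Reads were aligned with HISAT2, per the submitters' processing notes; the HISAT2 version, the counter and whether it used strand, and the annotation, are not stated in the labels. The table's chromosome accessions belong to GRCm39. Gene lengths, in bases, are as deposited. Reads were recovered by dividing the product of FPKM and length by the value of 1 read in each library. The result was whole, within 0.01, for 100% of values. The library size behind the deposited FPKM was 0.891 (cKO replicate 4) to 1.102 (cKO replicate 2) times the total of reads.

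Genes averaging 0.5 FPKM or more were taken to log2(FPKM + 0.5), a scale on which changes of low genes look smaller, and compared with limma 3.58.1 (lmFit, eBayes with trend) in R 4.3.3, all 7 libraries, no covariate, 2-sided, with Benjamini-Hochberg adjustment over 13057 genes and a threshold of 0.05. The fit was tested on simulated data. Single values had an exact permutation test over 35 splits. The genes named were the 10 genes, and of each pathway list the 3 with the smallest p and the most abundant; others named were chosen after their values were seen. The members and lists were chosen with earlier results of these data known. Figures were drawn with matplotlib 3.10.9. Intervals of reads cover counting error only.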

Additional observations from a re-analysis of the deposited data

Results flagged for a closer look

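Among the cKO libraries of the 10 genes, 1 library stood apart for 1 gene. Id2 was at 50.8 FPKM in cKO replicate 4, against 27.8 to 29.7 FPKM in the other cKO libraries, and the gap to the nearest library made up 0.916 of the range of the group, above Dixon's 95% critical value for 4 samples. Chance flags about 1 in 20 groups, and 10 genes were examined. Bhlhe40, a target in the same pathway lists singled out with its values known, was also highest in that library, at 64.6 FPKM, against 26.5 to 29.8 FPKM in the other cKO libraries and 28.1 to 45.8 FPKM in Ctrl. The summed FPKM of all genes was highest in that library too, at 522836, and its part in these levels was not tested.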

How the results depend on the processing

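No member and no other pathway gene passed under any of the 18 alternatives (0 in each). Of 179 alternative values of the 10 genes, 167 kept their direction and 12 turned. Id1 turned to 0.012 with TPM, 0.028 after quantile normalization, 0.063 with the length trend taken out and 0.025 without Ctrl replicate 1. Id3 turned to 0.0021 with the length trend taken out and 0.00036 without Ctrl replicate 1, and Smad6 to 0.035 without that replicate. Bambi turned to 0.11 with array weights, 0.0050 without cKO replicate 3 and 0.027 without Ctrl replicate 3. Bambi could not be tested where the filter was a mean of 1 FPKM. Id2 turned to -0.066 without cKO replicate 4. It was also -0.066 with the replicate number as a block, a fit in which cKO replicate 4 has no partner and drops out. When 1 library was left out, the differences ranged from -0.16 to 0.025 for Id1, -0.066 to 0.29 for Id2, -0.29 to 0.00036 for Id3, -0.23 to 0.035 for Smad6, -0.39 to 0.027 for Bambi, -0.32 to -0.013 for Tgfbi, lowest without Ctrl replicate 3, and 0.089 to 0.36 for Bmp2, highest without Ctrl replicate 1. The cause of these turns was not tested.

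The number of genes called over the whole table was 4. It was 1 with a pseudocount of 0.1, with no filter, with a filter at a mean of 1 FPKM and with the length trend taken out, 2 with voom and 0 with the replicate block (1052 at an unadjusted p under 0.05), and between 1 and 7 when 1 library was left out, highest without cKO replicate 1. Same-numbered libraries had correlations of their deviations from the group means of 0.12, -0.087 and -0.13, within the range of -0.18 to 0.31 for unlike numbers. So few libraries cannot exclude a shared litter or batch. The replicate numbers come from the sample titles and mostly differ from those of the deposited columns. TPM moved the median of all genes from -0.0077 to 0.074 on the log2 scale. The correction for gene length was chosen after seeing the data. Among the members, depth limits Bambi most, at 30 reads in cKO replicate 3.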
